A study of Mus musculus with 4 samples.

Results

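The tubulin isotypes studied here are 10 genes, Tuba1a, Tuba1b, Tuba1c and Tuba4a for alpha-tubulin and Tubb2a, Tubb2b, Tubb3, Tubb4b, Tubb5 and Tubb6 for beta-tubulin. They were taken by symbol, and all 10 were found among the 24344 distinct gene symbols of the files. The isotypes were selected on their FPKM difference between knockout and wild type, above all that of Tubb3, so the differences of these 10 genes are described below without a test. The aorta of C57BL/6 mice aged 3 weeks was profiled by RNA sequencing, with 2 libraries from mice with a knockout of GGPPS (KO) and 2 from wild-type mice (WT). GGPPS, encoded by Ggps1, makes the lipid geranylgeranyl diphosphate, which is attached to many small GTPases. The labels name males and females together for every library, and they do not say which cells carried the deletion, which control alleles the wild-type mice had or how many animals a library held. Nothing in the labels says that the 2 libraries of a genotype came from separate animals, so their spread may be technical.

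Ggps1 stood at 1.18 and 1.07 FPKM in KO and at 8.96 and 10.6 FPKM in WT, the direction of the labels. FPKM is a fragment count scaled for transcript length and for the size of the library, so levels of different genes can be set side by side on it. FPKM values summed to 611767 and 632918 in KO and to 515927 and 520478 in WT. Genes that reached 1 FPKM in 2 or more libraries, 12314 in all, were tested, and 35.2% were higher and 30.6% lower in KO at a limma adjusted p under 0.05. With column totals made equal the median log2 fold change of all genes was -0.20 in place of 0.03, and the split was 3095 higher and 5620 lower in place of 4332 and 3764. Smooth muscle markers of an aorta were present in the 4 libraries, and all 10 were lower in KO, with Acta2 at 1049 and 1791 FPKM in KO and 6277 and 7437 FPKM in WT. In RNA of whole tissue, fewer cells of a type and less RNA per cell cannot be told apart.

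Microtubules are hollow polymers of alpha- and beta-tubulin dimers that carry cargo, shape cells and form the mitotic spindle. Mammals hold several genes for each subunit, called isotypes, whose proteins are nearly alike except in the acidic tail at their carboxy end, where motors and modifying enzymes bind. Tuba1b, Tubb5 and Tubb4b are used in most tissues. Tuba1a, Tubb2a, Tubb2b and above all Tubb3 are known for their use in neurons, and Tubb3 is widely used as a neuronal marker. Cells adjust tubulin mRNA to the amount of free tubulin dimer, since the factor TTC5 recognises the first residues of a nascent tubulin chain and triggers decay of its mRNA.

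The first 10 codons of 3 isotypes are shown because that start is what TTC5 reads, with the first 4 codons in capitals. They were read from GENCODE M21 transcripts (GRCm38), for Tuba1a on chromosome 15 (minus strand), Tubb2b on chromosome 13 (minus strand) and Tubb3 on chromosome 8 (plus strand).
Tuba1a: ATGCGTGAGTGCatctccatccatgttggc
Tubb2b: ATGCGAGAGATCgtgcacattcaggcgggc
Tubb3: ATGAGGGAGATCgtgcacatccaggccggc

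The last 20 codons and the stop codon are shown because the isotypes differ most there, with the codons of the acidic residues aspartate and glutamate in capitals. Each lies in 1 exon of GRCm38, at the place named with it.
Tuba4a, chr1:75215622-75215684, minus strand: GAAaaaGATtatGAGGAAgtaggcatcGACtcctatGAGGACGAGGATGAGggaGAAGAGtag
Tubb2a, chr13:34074468-34074530, minus strand: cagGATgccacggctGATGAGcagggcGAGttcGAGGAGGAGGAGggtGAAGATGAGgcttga
Tubb2b, chr13:34127471-34127533, minus strand: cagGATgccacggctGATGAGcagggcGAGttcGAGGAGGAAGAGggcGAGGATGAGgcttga
Tubb3, chr8:123421620-123421682, plus strand: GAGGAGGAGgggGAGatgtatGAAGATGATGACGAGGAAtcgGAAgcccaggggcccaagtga
Tubb4b, chr2:25222308-25222370, minus strand: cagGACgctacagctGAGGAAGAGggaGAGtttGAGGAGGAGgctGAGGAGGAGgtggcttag
Tubb5, chr17:35834982-35835044, minus strand: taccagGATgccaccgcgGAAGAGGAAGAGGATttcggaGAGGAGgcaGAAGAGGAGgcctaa

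The tail of Tuba4a, the alpha isotype shown, ended in the codon gag for glutamate, where most alpha-tubulins end in the tyrosine that detyrosinating enzymes remove. Tubb3 was set apart from the other beta tails shown by its last codon, aag for lysine. Tubb2a and Tubb2b differed at 3 of the 63 bases, none of which changes the encoded residue. Each of the 10 tails held between 10 and 12 acidic codons among its last 20.

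**Figure D1:**
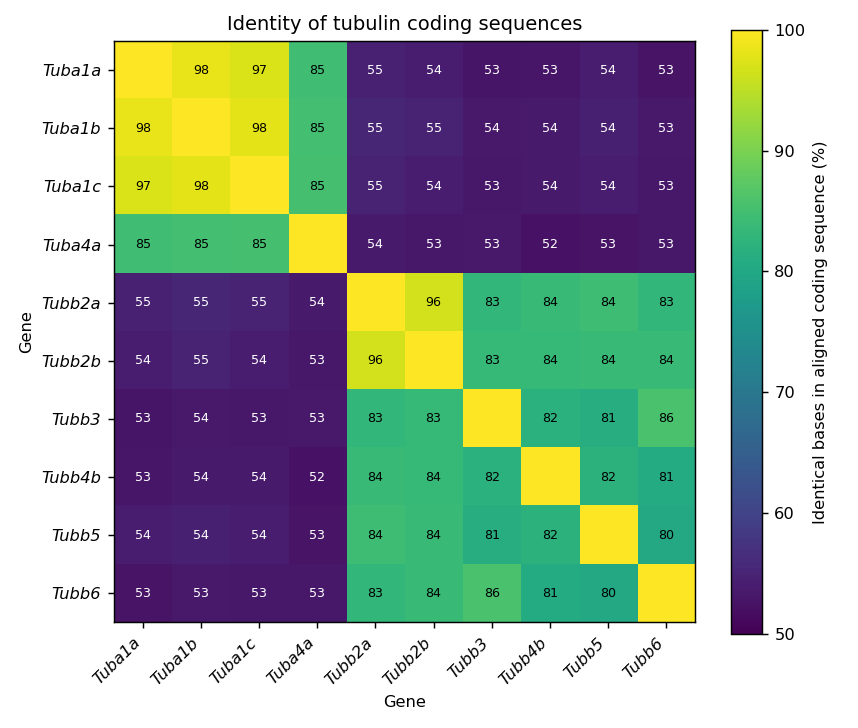
Share of identical bases (%, colour and printed number) between the aligned coding sequences of each pair of the 10 isotypes, with genes on both axes and the diagonal not numbered. Tuba1a, Tuba1b and Tuba1c form 1 block above 97% and Tubb2a with Tubb2b another, while Tubb3 is at most 85.7% identical to any other isotype.

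Because fragments are assigned by sequence, the likeness of the coding sequences bears on how well each level is known. Tuba1a, Tuba1b and Tuba1c, neighbours on chromosome 15, were 97.1% to 98.3% identical, with unbroken shared runs of 281 to 468 bases. Tubb2a and Tubb2b, neighbours on chromosome 13, were 96.5% identical and shared a run of 551 bases. No source used here says how fragments matching more than 1 gene were treated, so the split among these 3 alpha genes and between these 2 beta genes is uncertain. Tubb3 was closest to Tubb6, at 85.7% with a longest shared run of 47 bases. Tuba4a was at most 85.2% identical to another isotype, with no shared run above 29 bases.

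All 10 isotypes had higher FPKM in both KO libraries than in either WT library, as had 43.6% of all tested genes, while in 39.6% both KO libraries lay below both WT libraries. Such separation is common with 2 libraries against 2, and nothing is read from it here or for the single isotypes below. Log2 fold changes, of log2(FPKM + 1) in KO minus WT from a limma fit over all tested genes, ran between 0.67 for Tubb6 and 4.01 for Tubb3, with Tubb2b close to Tubb3 at 3.96. Tubb2b was the higher of this pair with a pseudocount of 5, at 2.51 against 2.23 for Tubb3, and without WT library 2, at 4.04 against 3.88. The median was 1.43 over the 10 isotypes and 0.03 over all tested genes. At an adjusted p under 0.05, 10 of the 10 were higher, where 35.2% of all tested genes were higher and 65.7% passed in either direction, and nothing is read from that count because this contrast chose the genes. Tubb3, under 1 FPKM in both WT libraries, passed the filter only through the KO libraries, and Tubb2b reached 1 FPKM in 1 WT library.

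**Figure D2:**
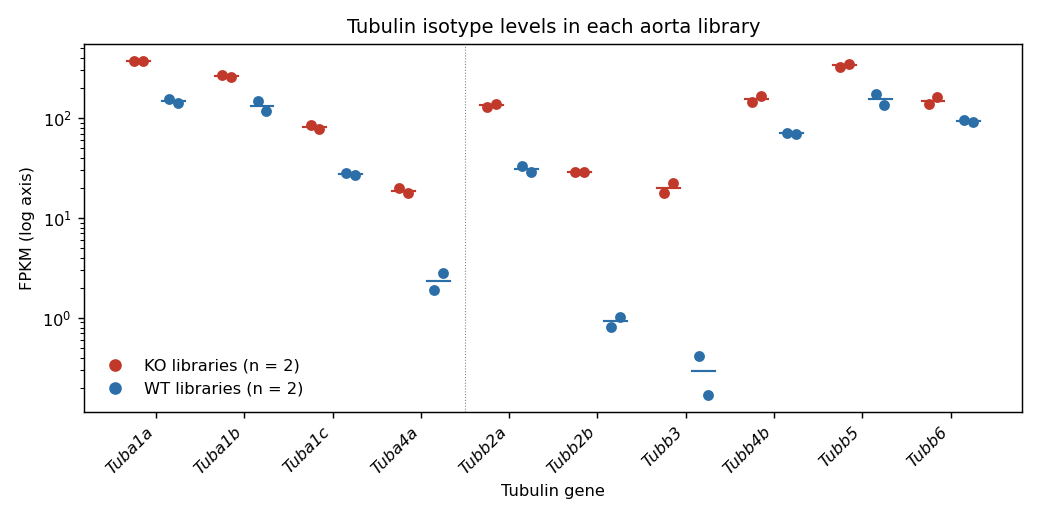
FPKM (log axis) of each isotype, with alpha genes left and beta genes right of the dotted line, in the 2 KO libraries (red) and the 2 WT libraries (blue); points are libraries and bars are means. KO points lie above WT points for every gene, with the widest gap for Tubb3, at 17.6 and 22.2 FPKM in KO and 0.414 and 0.17 FPKM in WT.

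Among the beta isotypes, Tubb3, the neuronal isotype whose mutations in humans cause eye movement disorders, had 17.6 and 22.2 FPKM in KO against 0.414 and 0.17 FPKM in WT. The lower KO value was 17.6 and the higher WT value 0.414, so the groups lay far apart, and the ratio of the means was 68.3. Tubb3 had a log2 fold change of 4.01 (SE 0.15), which understates the ratio because of the added 1. It ran between 2.23 with a pseudocount of 5 and 5.74 with a pseudocount of 0.1. Tubb3 lies at GRCm38 chromosome 8, 123411424 to 123422015, plus strand, with 4 exons.

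Tubb2b, known for its part in migration of cortical neurons, stood at 28.7 and 28.9 FPKM in KO against 0.813 and 1.03 FPKM in WT. The 2 libraries of each genotype lay close together and the genotypes apart, with a ratio of 31.2 and a log2 fold change of 3.96 (SE 0.12). Its near-copy Tubb2a was at 128 and 139.5 FPKM in KO against 33.2 and 29.1 FPKM in WT, a log2 fold change of 2.07 (SE 0.11). Tubb2b amounted to 0.225 and 0.207 of the Tubb2a level in KO and to 0.0244 and 0.0355 of it in WT. The ratio thus differed between genotypes. The sum of both genes was 162 ± 8.57 FPKM in KO and 32.1 ± 2.77 FPKM in WT (mean ± SD, n = 2 each, as for all such values below), and it too depends on the treatment of shared fragments.

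The beta isotypes that were abundant in WT differed less. Tubb5, the main beta-tubulin of most dividing cells, had 327 and 347 FPKM in KO against 172 and 135 FPKM in WT, a log2 fold change of 1.14 (SE 0.12). Tubb4b, which is widely used and needed in cilia, had 144 and 165 FPKM in KO against 71.5 and 68.7 FPKM in WT, a log2 fold change of 1.13 (SE 0.10). The WT libraries of Tubb5 lay further apart than those of Tubb4b. Tubb6, a broadly used isotype, had 137 and 161 FPKM in KO against 95.2 and 90.5 FPKM in WT, and its log2 fold change of 0.67 (SE 0.10) was the smallest of the 10. With equal column totals the value for Tubb6 was 0.41.

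Among the alpha isotypes, Tuba4a, the alpha-tubulin made without the final tyrosine, had 19.8 and 17.7 FPKM in KO against 1.90 and 2.81 FPKM in WT. Its ratio of means was 7.98 and its log2 fold change 2.57 (SE 0.14), above that of Tubb2a, whereas with a pseudocount of 5 it was 1.69 against 1.94 for Tubb2a. Tuba1a, the chief alpha-tubulin of developing neurons, had 369 and 375 FPKM in KO against 156 and 142 FPKM in WT, a log2 fold change of 1.32 (SE 0.09). Tuba1b, a widely used isotype, had 267 and 259 FPKM in KO against 147 and 118 FPKM in WT, a log2 fold change of 0.99 (SE 0.11). Tuba1c, a further member of the Tuba1 group, had 85.5 and 78.1 FPKM in KO against 27.9 and 26.7 FPKM in WT, a log2 fold change of 1.55 (SE 0.10). The sum of Tuba1a, Tuba1b and Tuba1c was 716 ± 6.75 FPKM in KO and 309 ± 31.0 FPKM in WT.

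**Figure D3:**
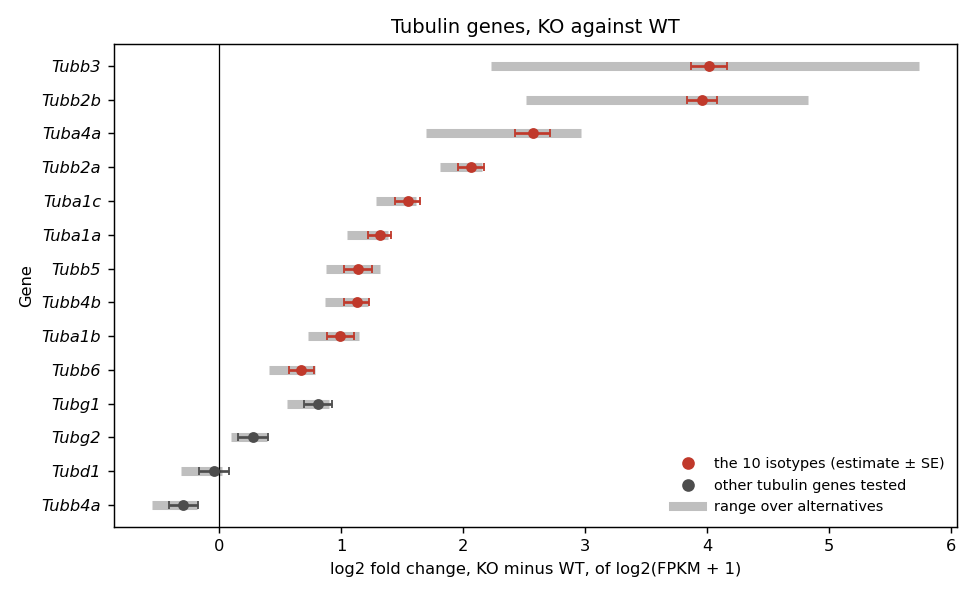
Log2 fold change, KO minus WT, of log2(FPKM + 1) for the 10 isotypes (red) and the 4 other tubulin genes tested (grey); bars are ± 1 SE and the pale band is the range over the alternative settings. Tubb3 at 4.01 and Tubb2b at 3.96 stand highest with the widest bands, and Tubb4a at -0.29 lies on the other side of 0.

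Ordered by mean level, the 10 isotypes kept nearly but not wholly the same order in both genotypes. In KO the order was Tuba1a, Tubb5, Tuba1b, Tubb4b, Tubb6, Tubb2a, Tuba1c, Tubb2b, Tubb3 and Tuba4a. The library values of Tubb4b overlapped those of Tubb6, those of Tubb6 overlapped those of Tubb2a, and those of Tubb3 overlapped those of Tuba4a, so these neighbours were not separated. In WT the order was Tubb5, Tuba1a, Tuba1b, Tubb6, Tubb4b, Tubb2a, Tuba1c, Tuba4a, Tubb2b and Tubb3, and the first 3 overlapped. The 3 isotypes that were lowest in WT, under 3 FPKM each, were the 3 with the largest ratios between genotypes. All 3 remained under 30 FPKM in KO, below the other 7.

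**Figure D4:**
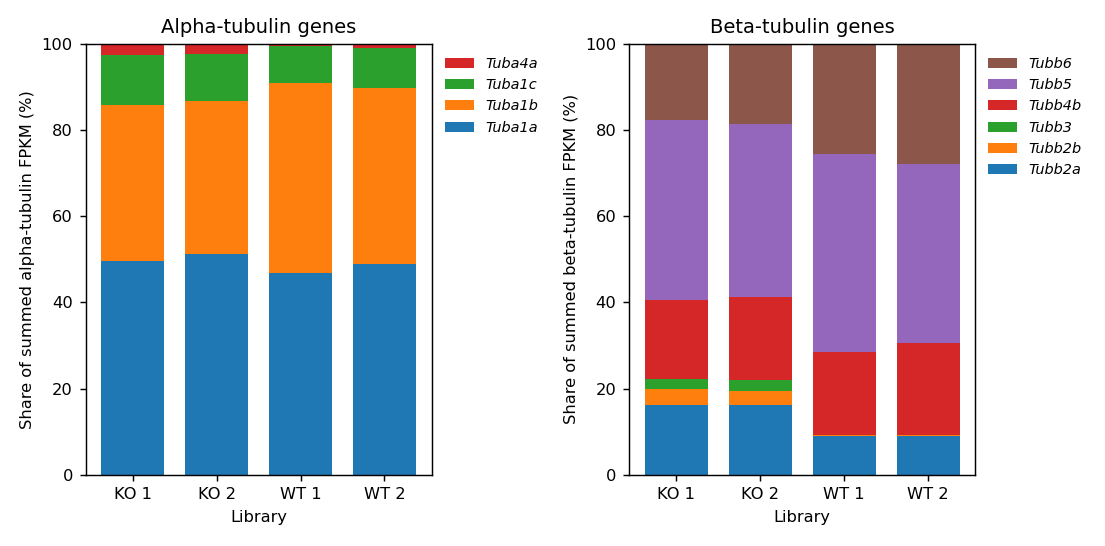
Share (%) of the summed FPKM of the 4 alpha genes (left) and the 6 beta genes (right) held by each isotype in the KO libraries and the WT libraries. Tubb2a, Tubb2b and Tubb3 together fill 22.2% and 22.1% of the beta bars in KO and 9.24% and 9.35% in WT, while Tubb6 is narrower in KO.

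The mix of isotypes within beta-tubulin differed between genotypes, and shares are given as a description without a test. Tubb3 made 2.41% ± 0.231 of the beta-tubulin FPKM in KO and 0.0816% ± 0.0413 in WT. Tubb2b made 3.51% ± 0.228 in KO and 0.268% ± 0.0712 in WT. Tubb2a made 16.2% ± 0.10 in KO and 8.94% ± 0.0508 in WT. Tubb6 went the other way, with 18.1% ± 0.747 in KO and 26.7% ± 1.70 in WT, though its own FPKM was higher in KO. Tubb5 and Tubb4b held shares whose libraries lay close between genotypes, 41.0% ± 1.10 in KO and 43.8% ± 3.23 in WT for Tubb5, and 18.8% ± 0.454 in KO and 20.2% ± 1.44 in WT for Tubb4b. Thus isotypes that were minor in WT had larger shares in KO, and the most abundant one remained Tubb5.

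Within alpha-tubulin, Tuba1b made 35.8% ± 0.380 in KO and 42.5% ± 2.38 in WT. Tuba1a made 50.5% ± 1.14 in KO and 47.9% ± 1.5 in WT. Tuba1c made 11.1% ± 0.585 in KO and 8.81% ± 0.598 in WT, and Tuba4a 2.55% ± 0.178 in KO and 0.770% ± 0.283 in WT. The 4 alpha genes summed to 735 ± 8.27 FPKM in KO and 311 ± 30.4 FPKM in WT, and the 6 beta genes to 823 ± 57.1 FPKM in KO and 349 ± 34.7 FPKM in WT. The alpha sum was 0.947 and 0.845 of the beta sum in KO and 0.891 and 0.894 of it in WT, so the balance of the subunits differed by less than the spread of the KO libraries. Together the 10 genes took 0.249% and 0.252% of all FPKM in KO and 0.137% and 0.118% in WT.

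The other 10 tubulin genes in the files did not all share this direction. Tubb4a, a beta isotype known from brain oligodendrocytes, had 20.2 and 22.9 FPKM in KO against 29.0 and 24.5 FPKM in WT. It passed as lower (log2 fold change -0.29, SE 0.12, limma adjusted p = 0.044), but that call ended without KO library 1 (adjusted p = 0.16), without WT library 1 (0.442) and without WT library 2 (0.0528), and also with no filter (0.0925) or no intensity trend (0.0543). Tubg1, the gamma-tubulin that seeds new microtubules at centrosomes, rose, with 30.6 and 34.7 FPKM in KO against 18.6 and 17.7 FPKM in WT (log2 fold change 0.81, limma adjusted p = 2.36e-05). Its sister Tubg2 was at 2.32 ± 0.0885 FPKM in KO and 1.74 ± 0.166 FPKM in WT (limma adjusted p = 0.0646), and passed with no intensity trend (0.0482). Tubd1, the delta-tubulin of centrioles, was at 3.53 ± 0.286 FPKM in KO and 3.67 ± 0.142 FPKM in WT (limma adjusted p = 0.774), but passed as lower after length and GC correction (0.0392). Tuba8 reached 1 FPKM in 1 WT library only and was not tested. Tube1, Tuba3a, Tuba3b, Tubal3 and Tubb1 stayed under 1 FPKM in the 4 libraries, and they are named after their values were seen.

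Newly made tubulin is folded by prefoldin and the chaperonin CCT and joined into dimers by the tubulin cofactors. Of 21 genes of this machinery, 18 rose in KO and none fell, where 35.2% of all tested genes were higher and 30.6% lower. Their median log2 fold change was 0.68. With equal column totals 16 were higher and 1 lower, with a median of 0.42. After length and GC correction 15 were higher and 0 lower, with a median of 0.44. Pfdn4, a prefoldin subunit, rose to 34.6 ± 0.249 FPKM in KO against 15.3 ± 0.410 FPKM in WT (limma adjusted p = 6.8e-07). Tbcb, a cofactor that binds alpha-tubulin, rose to 71.3 ± 5.38 FPKM in KO against 35.3 ± 0.835 FPKM in WT (limma adjusted p = 1.81e-06). The CCT subunits Cct3 and Cct7 rose by 0.90 and 0.81 on the log2 scale. The 3 that did not pass were Vbp1, Pfdn5 and Tbcel, at log2 fold changes of 0.13, 0.17 and -0.22. Each ratio of mean FPKM in this list stayed below 2.3, less than the ratios of the isotypes that were lowest in WT.

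Of the 3 genes known to act in decay of tubulin mRNA, 1 was lower and none higher, where 30.6% and 35.2% of all tested genes were. Ttc5 fell, with 21.5 and 20.1 FPKM in KO against 27.7 and 26.9 FPKM in WT (log2 fold change -0.38, SE 0.11, limma adjusted p = 0.00728). The call ended without WT library 1 (adjusted p = 0.101) and without WT library 2 (0.0629). Its partner Scaper was at 2.30 ± 0.225 FPKM in KO and 2.48 ± 0.105 FPKM in WT, and Cnot11, which links it to the deadenylase, at 13.7 ± 0.505 FPKM in KO and 11.9 ± 0.510 FPKM in WT. Neither of these passed (limma adjusted p = 0.609 and 0.158).

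**Figure D5:**
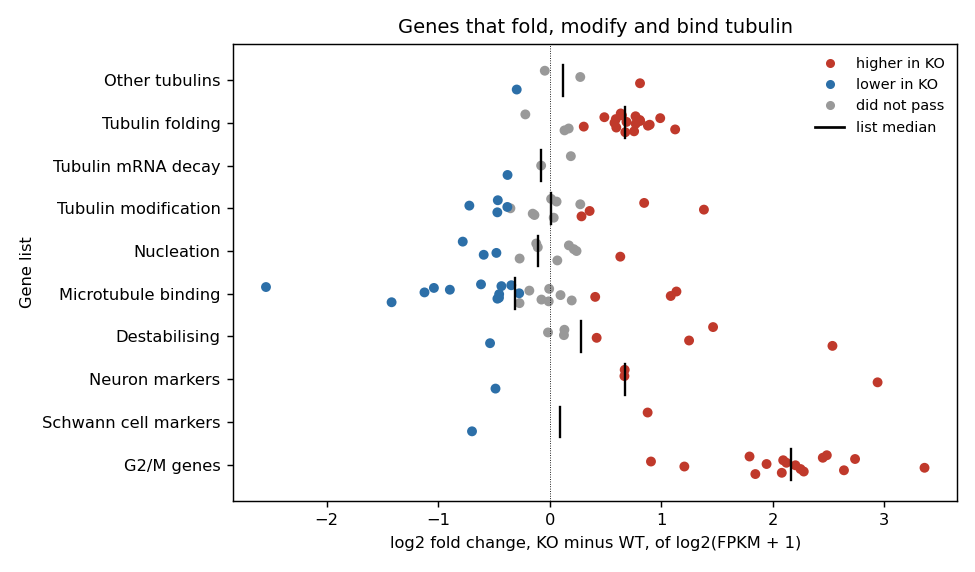
Log2 fold change, KO minus WT, of log2(FPKM + 1) for each tested gene of 10 lists; colour shows whether the gene passed as higher (red), as lower (blue) or not (grey), and the black line is the list median. Folding genes other than Tbcel lie right of 0, and the list median is 0.68. Microtubule-binding genes spread to both sides with a median of -0.31, and the G2/M genes reach furthest right.

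Of 15 tested enzymes that modify tubulin, 4 were higher and 4 lower, neither share above the 35.2% and 30.6% of all tested genes, with a median log2 fold change of 0.01. With equal column totals 1 was higher and 8 lower, with a median of -0.30. Without KO library 1 the counts were 3 higher and 2 lower, without KO library 2 they were 1 and 5, and without WT library 1 they were 2 and 4. Ttll12, a member of the tubulin tyrosine ligase-like family, rose to 9.94 ± 0.344 FPKM in KO against 3.19 ± 0.194 FPKM in WT (limma adjusted p = 3.3e-07). Vash2, one of the enzymes that remove the final tyrosine of alpha-tubulin, rose to 1.09 ± 0.0356 FPKM in KO against 0.160 ± 0.0648 FPKM in WT and passed the filter only through KO. Agbl5, which removes glutamates from tubulin, fell to 1.57 ± 0.280 FPKM in KO against 3.22 ± 0.0798 FPKM in WT (limma adjusted p = 0.000232). Hdac6, a tubulin deacetylase, fell by 0.46 on the log2 scale, but its call ended once trends with transcript length and GC content were taken out (adjusted p = 0.119). Ttl itself, the ligase that restores the tyrosine and is named here after its value was seen, was at 8.31 ± 0.334 FPKM in KO and 8.08 ± 0.211 FPKM in WT.

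Of 11 genes of the gamma-tubulin ring complex and its anchors, Tubgcp4 rose and Tubgcp5, Tubgcp6 and Pcnt fell, against 35.2% and 30.6% of all tested genes, with a median of -0.11. With equal column totals 1 was higher and 6 lower. Without KO library 2 the counts were 2 higher and 5 lower, and without KO library 1 they were 2 and 3, with a median of 0.08. Tubgcp4, a ring subunit, was at 9.55 ± 1.54 FPKM in KO and 5.76 ± 0.0622 FPKM in WT. Tubgcp5, another subunit, was at 3.71 ± 0.324 FPKM in KO and 6.08 ± 0.0117 FPKM in WT. The calls of Tubgcp6 and of Pcnt, the centrosome scaffold pericentrin, ended after length and GC correction (limma adjusted p = 0.867 and 0.092). That of Tubgcp6 also ended without WT library 1, where its log2 fold change was -0.39 in place of -0.48.

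Of 22 tested genes for proteins that bind microtubules, 3 were higher and 12 lower, where 35.2% and 30.6% of all tested genes were, and the median log2 fold change was -0.31. Map9 among the 3 passed the filter only through KO and Tppp among the 12 only through WT, both named after their values were seen. After length and GC correction 9 were lower and 7 higher, with a median of -0.01. Tppp3, which bundles microtubules and marks some connective tissue cells, fell to 19.7 and 23.1 FPKM in KO against 105 and 159 FPKM in WT (log2 fold change -2.54, SE 0.16, limma adjusted p = 1.06e-08). Map1b, a neuronal microtubule-associated protein, fell to 20.9 ± 4.56 FPKM in KO against 56.7 ± 1.17 FPKM in WT. Clip2 and Dclk1, a tip-binding linker and a doublecortin-like kinase, rose by 1.14 and 1.09 on the log2 scale.

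Among genes whose products take microtubules apart, 4 of 8 tested rose and 1 fell, where 35.2% and 30.6% of all tested genes did, with a median log2 fold change of 0.28. With equal column totals 3 were higher and 1 lower, with a median of 0.04. Stmn1, stathmin, which sequesters tubulin dimers, rose to 108 and 102 FPKM in KO against 21.1 and 14.1 FPKM in WT (log2 fold change 2.54, SE 0.15, limma adjusted p = 5.91e-09). Its relative Stmn4 rose to 8.27 ± 0.147 FPKM in KO against 2.95 ± 0.888 FPKM in WT. Another relative, Stmn2, fell to 2.29 ± 0.555 FPKM in KO against 3.73 ± 0.0410 FPKM in WT. Fignl1, of the fidgetin family of ATPases, rose to 3.24 ± 0.0819 FPKM in KO against 0.539 ± 0.163 FPKM in WT, and it too passed the filter only through KO.

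Since Tubb3 is a neuronal marker, 17 other markers of neurons and axons were read. Of these, 13 stayed under 1 FPKM in the 4 libraries, among them the defining genes Elavl3, Elavl4, Rbfox3, Snap25, Nefl and Dbh, each under 0.1 FPKM, and Ina was listed at 0 in the 4 libraries. Of the 4 tested, Uchl1, Prph and Gap43 rose and Syp fell, where 35.2% of all tested genes rose and 30.6% fell. Prph and Gap43 were under 1 FPKM in both WT libraries and passed the filter only through KO, and Syp only through WT, so their directions were fixed by the filter. The call of Syp ended without KO library 2 (limma adjusted p = 0.085). Gap43, an axon growth protein, did not pass without the filter (limma adjusted p = 0.0545) or after length and GC correction (0.119). Uchl1, a ubiquitin hydrolase abundant in neurons, rose to 616 and 593 FPKM in KO against 79.6 and 76.1 FPKM in WT (limma adjusted p = 1.74e-11). All 17 markers summed to 621 and 596 FPKM in KO and 82.4 and 79.1 FPKM in WT, most of it from Uchl1. Without Uchl1, a sum that was not planned, the other 16 came to 5.36 and 3.40 FPKM in KO and 2.83 and 3.03 FPKM in WT. The part of neurons in the level of Tubb3 was not tested. The 7 Schwann cell markers summed to 5.77 and 5.24 FPKM in KO and 5.62 and 6.28 FPKM in WT, and S100b, a calcium-binding protein, was the one of them that rose.

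Other cell type and cell cycle markers also differed between genotypes, some in the direction of the isotypes and some against it. Their part in the differences of the isotypes was not tested. All 16 G2/M genes, which mark dividing cells, rose, where 35.2% of all tested genes did, and they summed to 179 and 180 FPKM in KO and 24.6 and 18.4 FPKM in WT. Ube2c, a ubiquitin-conjugating enzyme of mitotic exit, was at 37.6 ± 3.52 FPKM in KO and 2.77 ± 0.585 FPKM in WT. All 10 macrophage markers rose, against the same 35.2%, with sums of 539 and 457 FPKM in KO and 74.1 and 75.2 FPKM in WT. Some genes of both lists were under 1 FPKM on average in WT and passed the filter wholly or partly through KO, 6 of the 16 and 3 of the 10. The 10 smooth muscle markers fell, where 30.6% of all tested genes did. Their sums were 5003 and 6683 FPKM in KO and 21240 and 23630 FPKM in WT. The 7 endothelial markers tested fell, against the same 30.6%. List sums were 68.9 and 84.5 FPKM in KO and 247.9 and 249 FPKM in WT, and Kdr was near 0. Of 8 fibroblast markers 5 fell and 2 rose, against 30.6% and 35.2% of all tested genes. Their sums were 3445 and 3203 FPKM in KO and 3417 and 2863 FPKM in WT.

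The genes whose profile over the 4 libraries lay nearest to that of Tubb3 were Psat1, Serpinb9b and Ctss. Likeness was the Euclidean distance between log2(FPKM + 1) values, each gene centred on its own mean, over 11361 genes. The isotypes, symbols of the Gm and Rik kinds and genes on chromosomes X and Y were left out of this comparison. Psat1, a serine synthesis enzyme, lay at a distance of 0.13, with 66.8 and 73.9 FPKM in KO and 3.74 and 3.02 FPKM in WT. Serpinb9b, a serine protease inhibitor, lay at 0.17, with 14.4 and 16.4 FPKM in KO and 0.111 and 0.0276 FPKM in WT. Ctss, the lysosomal protease cathepsin S of macrophages and other antigen-presenting cells, lay at 0.29, with 46.4 and 46.5 FPKM in KO and 2.63 and 2.07 FPKM in WT. With 4 libraries in 2 groups, a short distance mostly reflects a difference between genotypes of like size.

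The promoters of Tubb3 and Tubb2a are shown as those of the beta isotypes with the largest fold changes among the promoters in the RefSeq table, each running from 250 bases before to 50 after the RefSeq start (GRCm38.p6). Capitals mark the CCAAT box by its letters, the GC box (GGGCGG) and the TATA box (TATAAA), on either strand.
Tubb3, chr8:123411303-123411602, plus strand: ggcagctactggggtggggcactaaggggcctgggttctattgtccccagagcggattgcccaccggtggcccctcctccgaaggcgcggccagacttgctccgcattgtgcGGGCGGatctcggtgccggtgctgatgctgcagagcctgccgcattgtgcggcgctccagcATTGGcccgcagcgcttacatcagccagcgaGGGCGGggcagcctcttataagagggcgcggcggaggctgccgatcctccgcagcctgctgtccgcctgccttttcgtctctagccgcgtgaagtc
Tubb2a, chr13:34077959-34078258, minus strand: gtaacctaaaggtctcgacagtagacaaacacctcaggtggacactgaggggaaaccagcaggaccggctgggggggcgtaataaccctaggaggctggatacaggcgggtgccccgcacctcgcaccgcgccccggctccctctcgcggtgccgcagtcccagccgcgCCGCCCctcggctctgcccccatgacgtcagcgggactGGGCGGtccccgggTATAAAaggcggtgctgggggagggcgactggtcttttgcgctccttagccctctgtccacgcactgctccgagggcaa

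Promoters of 8 of the 10 isotypes were matched in the RefSeq table, without Tubb2b and Tubb6. GGGCGG stood in 7 of these 8 promoters and in 35.7% of 32851 promoters of the same length. CCAAT stood in 5 of the 8, among them Tubb3, and in 37.4% of all. TATAAA stood in those of Tubb2a and Tubb4b and in 13.6% of all. CACGTG, the E-box, stood in that of Tubb5 alone and in 7.2% of all, and TTTGAA, an element of many G2/M promoters, in that of Tubb4b alone and in 17.9% of all. TGANTCA, the AP-1 site, was in none of the 8 and in 7.8% of all. Each motif was searched on both strands, and no motif contains another. The 8 promoters had a median GC content of 60.5%, against 52.7% for all promoters.

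Some isotypes overlap other genes, and no source used here says if strand was used in counting, so that reads of opposite genes may not be told apart. Tuba4a shares 1379 bases with Stk16, a kinase gene on the opposite strand, which was at 23.0 and 23.2 FPKM in KO and 23.8 and 23.8 FPKM in WT. The part of this overlap in the values of Tuba4a was not tested. Tubb4b shares 121 bases with Fam166a on the opposite strand, which stood at 0 in 3 libraries and at 0.0516 FPKM in WT library 2. Gm20388 spans Tubb3, and Gm49450 covers much of Tuba1a and Tuba1b, each on the same strand, and these predicted genes were not analysed here.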

How the data were processed

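Per the file headers, the authors deposited FPKM values, 1 file per library, with the unit misspelt. Tools listed in the submitters' processing notes, with no role given, are DESeq2 1.16.1, HISAT2 2.0.5 and featureCounts 1.5.0-p3, and the build is mm10. No source used here names the program that made the FPKM. Libraries were made from polyadenylated RNA with random primers, per the labels' protocols.

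No common step was found in low values: in 3 pairs of libraries compared over genes below 0.3 FPKM in each, no ratio was shared by more than 0.347% of genes. Fragment counts were therefore not recovered, depth is unknown, and precision rests on the spread between 2 libraries. Each file holds 24346 rows.

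log2(FPKM + 1), computed from the deposited FPKM, was fitted for KO against WT with an intensity trend in limma 3.58.1 under R 4.3.3, over the 12314 genes that reached 1 FPKM in 2 or more libraries. P-values were two-sided and Benjamini-Hochberg adjusted over them, with a threshold of 0.05 and 13.4 degrees of freedom in all, most borrowed from other genes. An exact permutation test of 2 against 2 cannot go below a two-sided p of 0.333 and was not used. A gene under 1 FPKM in both libraries of one genotype passed only through the other. The script was tested on simulated data.

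The isotypes and gene lists were chosen with earlier results of these data known. Genes named were the 10 isotypes, Ggps1, other tubulins reaching 1 FPKM, up to 4 passing genes of each list by smallest p, and the 3 genes nearest to Tubb3. Some genes were chosen after their values were seen: Acta2, Stk16, Fam166a, Kdr, Map9, Tppp, Ttl and the genes that did not pass in the folding and decay lists or stood near 0 among neuronal markers. Coding sequences came from GENCODE M21, taking the longest coding sequence that runs to a stop codon. They were aligned globally with Biopython 1.88, and promoters came from RefSeq. Some genes and sequences that these rules name are not reported here.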

Additional observations from a re-analysis of the deposited data

How the results depend on the processing

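Alternatives were pseudocounts of 0.1 and 5, no filter, a filter of 5 FPKM, equal column totals, no intensity trend, robust variance estimation, leaving out each library and, added after the data were seen, removal of length and GC trends (values for 96.3% of tested genes). In none of 118 recomputed isotype fold changes did the sign turn, but most of them could not turn. Filters and variance settings leave the estimate unchanged. With both KO libraries above both WT libraries for every isotype, no pseudocount or left-out library can turn it. Only equal column totals and removal of length and GC trends could turn a sign, and neither did. Without either KO library Tubb3 no longer met the filter, and 9 isotypes were past the threshold. Of 340 recomputed fold changes of other genes, none turned past the threshold and 14 lost their call. These genes were Ggps1 and those that the naming rule picked from the other tubulins, the neuronal markers and the microtubule lists, with folding and decay. Settings in which a gene was no longer tested are not counted among the 340. Of 60 recomputed isotype shares, 5 moved by more than 1 SD, all when Tubb4a and the other alpha and beta genes were added to the sums. They were those of Tubb2a and Tubb4b in both genotypes and of Tubb6 in WT. Leaving out 1 of 2 libraries cannot move a mean share by 1 SD, so only the wider sums could move one.

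Counts of list genes moved as follows, and the cause was not tested. With equal column totals 1 folding gene was lower, 1 modifying gene higher and 8 lower, and 6 nucleation genes lower. With no filter 2 modifying genes were higher and 2 destabilising genes lower. With a filter of 5 FPKM, which tests fewer genes, 2 modifying genes were higher and 2 lower, and 0 destabilising genes were lower. With length and GC trends removed 1 modifying gene was lower, 2 nucleation genes were higher and 1 lower, and 7 binding genes were higher. Without 1 library at a time, modifying genes higher ran from 1 to 3 and lower from 2 to 5, and nucleation genes higher ran from 1 to 2 and lower from 2 to 5. With 1 library left in a genotype, it is assumed to vary like the pair of the other genotype. No paired analysis was possible because the labels number the libraries 1 to 4 across genotypes and pair none.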
